A study of Mus musculus with 3 samples.

Results

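The genes of the major histocompatibility complex (MHC) and of antigen processing were followed in primary mouse peritoneal macrophages given apoptotic cells, given LPS or left untreated. The members were all gene symbols that start with H2-, the mouse MHC prefix, and 16 named genes of peptide supply, loading, control and costimulation. The files held 43 of these genes among 20574 symbols, made up of 31 H2- symbols and 12 of the named genes. B2m, Cd74, Cd80 and Cd86 were not analysed here, and neither were the classical class I chain genes H2-K1 and H2-D1. The class II chain gene H2-Eb1 and the class II loading gene H2-DMa were not analysed either, so the class II counts below leave them out. By role, 31 members belong to class I presentation, 8 to class II presentation, and the rest are the transactivator genes Ciita and Nlrc5, the costimulation gene Cd83, and H2-Ke2, a prefoldin subunit gene that carries the prefix because of its place in the region.

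MHC class I molecules show peptides from a cell's own proteins to CD8 T cells. The immunoproteasome cuts those proteins, the TAP transporter moves the peptides into the endoplasmic reticulum, and tapasin helps load them. Class II molecules, pairs of an alpha and a beta chain, show peptides from engulfed material to CD4 T cells; in the endosome H2-DM exchanges the peptide and H2-O restrains H2-DM. CIITA switches on class II genes and NLRC5 class I genes. Macrophages, dendritic cells and B cells are the main cells that carry class II, and macrophages digest the dead cells they take up in the same compartments.

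RNA was sequenced from 3 libraries, 1 per condition. In the apoptotic-cell library macrophages had been kept for 5 h with 5 apoptotic cells per macrophage, and unengulfed cells were rinsed off. The LPS library came from macrophages given 100 ng/ml of this bacterial lipid for 5 h, and the untreated library from macrophages with no addition, for which no time is given. The titles mark all libraries as WT; the mouse strain, age and sex, the number of animals and the source of the apoptotic cells are not stated in the labels. With 1 library per condition no difference has a replicate check and none has a p-value, and treatment cannot be told apart from time or handling against the untreated library.

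The values are FPKM, a fragment count scaled to transcript length in kilobases and to 1000000 mapped fragments, and they summed to 197222 after apoptotic cells, 200224 after LPS and 199881 without treatment. The spacing of the smallest values put a single read on a 1 kb transcript at roughly 0.33, 0.32 and 0.315 FPKM in the same order, which gives the approximate read numbers and counting intervals below; these cover counting error only. Many values were listed as exactly 0. Among 68 ribosomal protein genes above 0 somewhere, which every cell uses, 15 were listed at 0 after apoptotic cells, 7 after LPS and 16 without treatment, so a listed 0 can be a failed estimate and is given here only as listed. Of the macrophage markers, Csf1r was listed at 184.8 FPKM after apoptotic cells, 0 after LPS and 56.3 FPKM without treatment, and Cd14 at 555.1, 0 and 303.3 FPKM in the same order. Fcgr1 was listed at 3.29, 0.377 and 0.115 FPKM and Gata6 at 0, 8.81 and 0 FPKM, so the markers differed in which library was highest; 6 of the 10 markers were not analysed here.

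Of the 43 members, 31 were above 0 in at least 1 library. With apoptotic cells 23 were above 0, after LPS 24, and without treatment 13. The untreated library also listed fewer genes of any kind, 32.8% of all symbols above 0 against 38.7% after apoptotic cells and 38.1% after LPS. Among the 31, 7 were above 0 in every library, namely H2-Oa, H2-M2, H2-Ke2, Tap1, Tap2, Psmb8 and Psmb9. These are 22.6% of the 31, where 31.8% of all genes above 0 anywhere had values in every library. Another 11, or 35.5%, were above 0 after apoptotic cells and after LPS but listed at 0 without treatment, a pattern that 20% of the 11291 genes above 0 anywhere had. For 5 of these 11, H2-Ab1, H2-Eb2, H2-DMb1, H2-DMb2 and H2-Ob, the role was class II presentation.

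**Figure D1:**
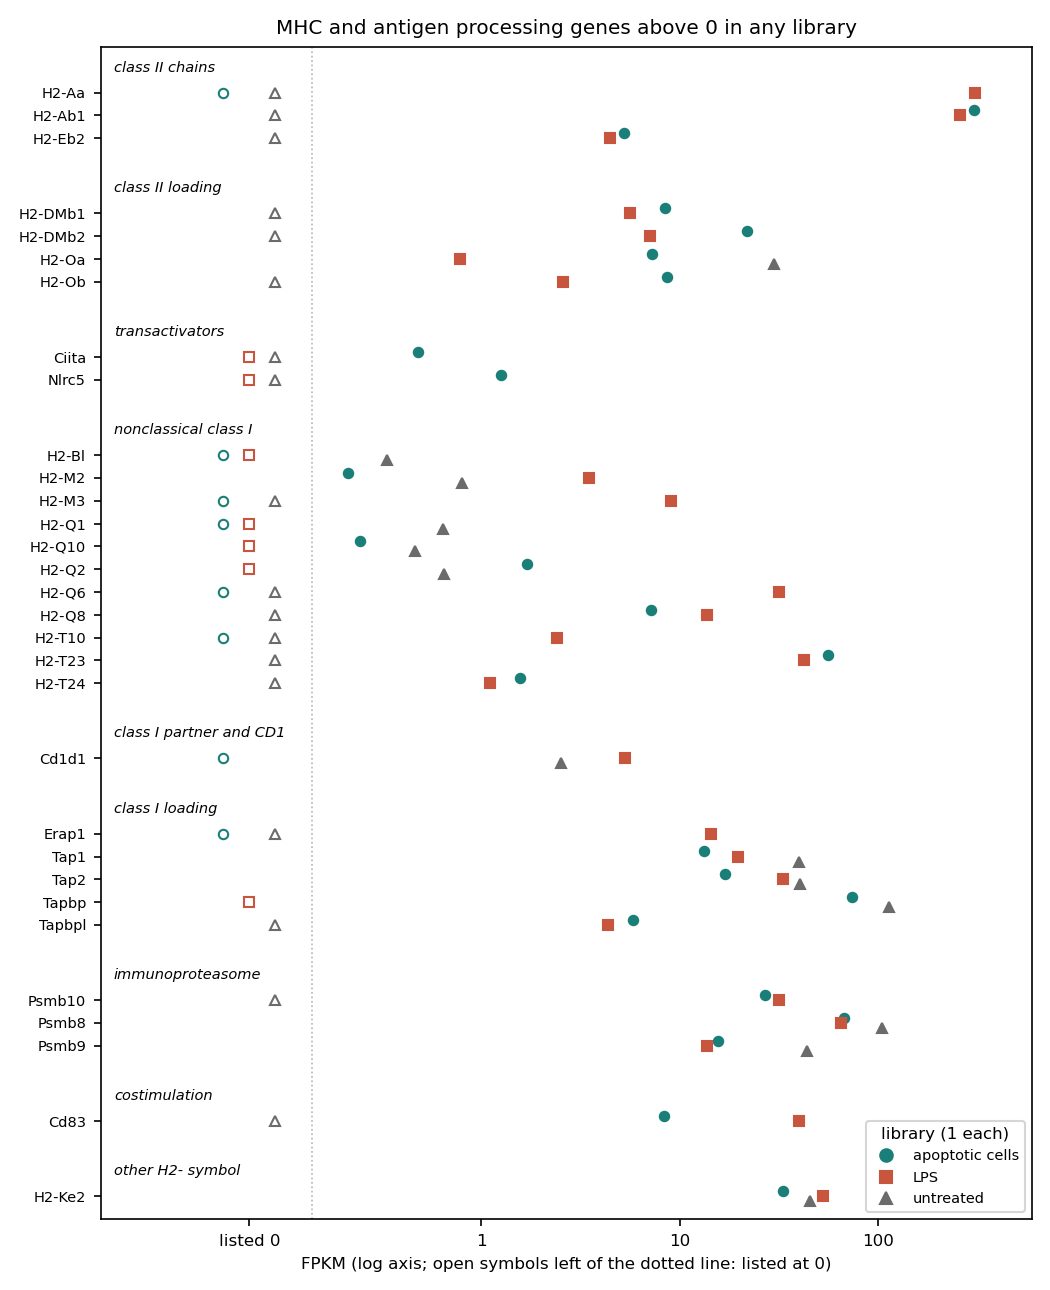
FPKM of the 31 members above 0 in at least 1 library (log axis), grouped by role, with 1 symbol per library (apoptotic cells, LPS, untreated) and open symbols for values listed at 0. The class II genes have open symbols for the untreated library except H2-Oa at 29.9 FPKM, whereas Tap1, Tap2, Psmb8 and Psmb9 have values in every library and are highest without treatment.

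The class II chain genes lie on chromosome 17 of mm10. H2-Ab1, the beta chain gene of I-A (34257689 to 34269419), was listed at 306.6 FPKM after apoptotic cells, 260.5 FPKM after LPS and 0 without treatment. Its partner H2-Aa, the I-A alpha chain gene (34282744 to 34287823), was listed at 307.8 FPKM after LPS and at 0 in both other libraries. Where they were above 0 both genes were among the most abundant, at percentile 98.5 or higher of the genes above 0 in the same library. I-A is made of both chains, and the apoptotic-cell library listed the beta chain gene but not the alpha chain gene above 0.

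H2-Eb2, a beta chain gene of the I-E subregion (34325665 to 34341412), was listed at 5.23 FPKM after apoptotic cells, 4.48 FPKM after LPS and 0 without treatment, which correspond to about 51 and 45 reads in the treated libraries. The pseudogene H2-Ea-ps was listed at 0 in all 3 libraries. No chain gene was above 0 without treatment, so none of the 4 gave a ratio against the untreated library.

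The loading genes differed in whether they had a value without treatment. H2-DMb1 (34153072 to 34160230) and H2-DMb2 (34143307 to 34151555), the beta chain genes of the peptide exchanger H2-DM, stood at 8.46 and 22 FPKM after apoptotic cells and 5.62 and 7.07 FPKM after LPS, with both listed at 0 without treatment. H2-Ob, the beta chain gene of the restrainer H2-O (34238903 to 34254414), was listed at 8.63 FPKM after apoptotic cells, 2.58 FPKM after LPS and 0 without treatment. H2-Oa, the H2-O alpha chain gene (34092340 to 34095234), was listed above 0 in every library, at 7.24 FPKM after apoptotic cells, 0.783 FPKM after LPS and 29.9 FPKM without treatment, about 19, 2 and 84 reads. Between the treated libraries H2-Oa and H2-Ob were both higher after apoptotic cells. H2-Oa was the 1 class II gene of 8 above 0 in the untreated library. H2-Oa shares exonic sequence with BC051537 on the other strand, which was listed at 0 in every library, and whether the libraries kept strand is not stated in the labels.

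Class II genes are controlled by an upstream module whose Y box is an inverted CCAAT sequence bound by NF-Y, next to an X box bound by the RFX complex. The RefSeq promoter windows of GRCm38.p6 (250 bases before to 50 after the start) covered 6 of the 8 class II members. All 6 held the Y box core TGATTGG, on either strand, which 7.82% of 32851 promoter windows hold, and H2-DMb1, H2-DMb2 and H2-Eb2 also held AACNGATG, part of an X box, which 2.32% hold. The stretches are shown because these genes differ in their values although they share the core; capitals mark TGATTGG or AACNGATG.
H2-Aa (chr17:34287847-34287933, minus strand): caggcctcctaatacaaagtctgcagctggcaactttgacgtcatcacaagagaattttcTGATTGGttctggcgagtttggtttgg
H2-Eb2 (chr17:34325513-34325599, plus strand): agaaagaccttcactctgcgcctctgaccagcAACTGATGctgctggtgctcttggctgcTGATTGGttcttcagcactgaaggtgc
H2-DMb1 (chr17:34153068-34153154, plus strand): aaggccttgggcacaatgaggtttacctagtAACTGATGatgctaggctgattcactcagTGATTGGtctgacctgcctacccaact
H2-DMb2 (chr17:34145097-34145183, plus strand): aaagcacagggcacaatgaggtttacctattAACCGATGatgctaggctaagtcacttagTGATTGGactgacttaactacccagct
H2-Oa (chr17:34092274-34092360, plus strand): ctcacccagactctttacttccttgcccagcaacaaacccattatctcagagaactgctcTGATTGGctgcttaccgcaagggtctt
H2-Ob (chr17:34238786-34238872, plus strand): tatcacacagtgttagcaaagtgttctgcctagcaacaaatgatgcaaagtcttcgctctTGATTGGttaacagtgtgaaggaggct
Counted from the RefSeq starts, the core begins between 45 bases (H2-Oa) and 102 bases (H2-Eb2) before the gene. These starts differ from the ends of the GENCODE genes given above, and the cores of H2-DMb1 and H2-DMb2 lie inside the GENCODE extents of these genes. In the windows, 20 or 21 bases separate the core from AACNGATG where both occur. The core TGATTGG is not limited to class II genes or to genes above 0: 10 of 17 nonclassical class I members with a window held it, among them 8 listed at 0 in every library. A match of letters is a description and shows no binding.

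Class II genes are also expressed by B cells and dendritic cells, which peritoneal preparations can hold. The 11 B cell markers summed to 199.6 FPKM after apoptotic cells, 167.6 FPKM after LPS and 652.5 FPKM without treatment, and 9, 9 and 4 of them were above 0. Ly6d alone made up 563.2 of the 652.5 FPKM without treatment, so the order of the sums rests on 1 gene. Like the class II genes, the markers differed in which library was highest. Cd79b (85.6, 19.1 and 0 FPKM) and Ms4a1 (28.9, 15.9 and 0 FPKM) had the order of H2-DMb2 and H2-Ob, while Ly6d (42.7, 73.9 and 563.2 FPKM) and Blnk (38.4, 18.5 and 82.7 FPKM), like H2-Oa, were highest without treatment. Cd79a, a defining chain of the B cell receptor complex, was listed at 33.6 FPKM after LPS and at 0 in both other libraries. Pax5 (1.47, 2.12 and 0 FPKM), Ebf1 (1.48, 2.72 and 0 FPKM) and Cd22 (0, 1.63 and 0 FPKM) were also highest after LPS. Cr2 (0.0965, 0.198 and 3.44 FPKM) and Vpreb3 (0.847, 0 and 3.24 FPKM) were highest without treatment, and Fcer2a (0.162, 0 and 0 FPKM) after apoptotic cells.

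Of the dendritic cell markers, Ccr7 was listed at 24, 54.4 and 0 FPKM and Itgax at 0, 19.3 and 7.94 FPKM in the order apoptotic cells, LPS, untreated. The 8 in the files summed to 27.5, 76.9 and 15.6 FPKM, with 5, 8 and 4 above 0. Clec9a, which defines one dendritic cell lineage, was at 0.122 FPKM after LPS and listed at 0 in both other libraries. Flt3 (0, 0.0933 and 1.37 FPKM), Xcr1 (0.0743, 0.23 and 0.836 FPKM) and Kmo (0.14, 0.716 and 5.45 FPKM) were highest without treatment, and Cd209a (2.02, 1.83 and 0 FPKM) and Dpp4 (1.34, 0.197 and 0 FPKM) after apoptotic cells. Of the 5 small peritoneal macrophage and monocyte markers, Retnla (217.3, 99.9 and 54.5 FPKM) was highest after apoptotic cells. Irf4 (5.12, 7.82 and 0 FPKM) and Ccr2 (0, 0.0984 and 0 FPKM) were highest after LPS. Ly6c2 (1.16, 3.6 and 4.9 FPKM) and Cd226 (0.156, 0.318 and 0.732 FPKM) were highest without treatment. The part of any of these cell types in the class II values was not tested, and in bulk RNA fewer cells of a type and less RNA per cell cannot be told apart.

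**Figure D2:**
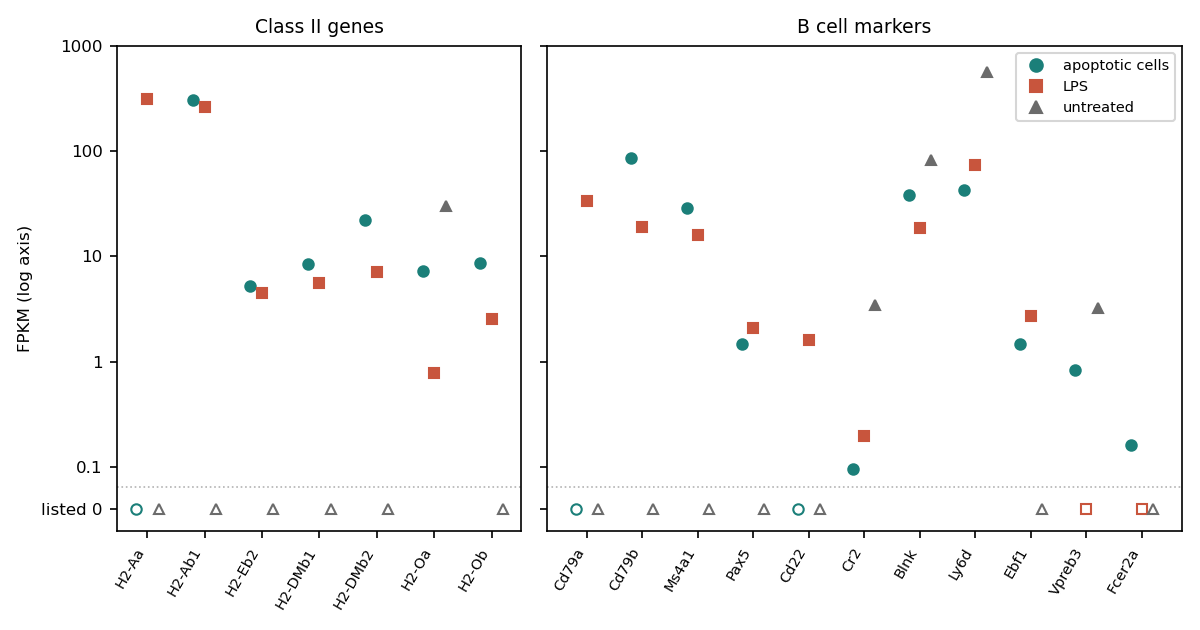
FPKM (log axis) of the 7 class II genes above 0 somewhere, left, and of the 11 B cell markers, right, with 1 symbol per library and open symbols for values listed at 0. In both panels most genes are listed at 0 in the untreated library, while H2-Oa on the left and Ly6d, Blnk, Cr2 and Vpreb3 on the right are highest in it.

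The transactivator genes were listed above 0 after apoptotic cells only, as were 9.85% of all genes above 0 anywhere. Ciita, on chromosome 16, stood at 0.481 FPKM and Nlrc5, on chromosome 8, at 1.26 FPKM, about 8 and 28 reads on these long transcripts, and both were listed at 0 after LPS and without treatment. Class II genes were thus above 0 after LPS while Ciita was listed at 0. Neither transactivator reached a mean of 1 FPKM over the libraries. Annotated exons of Ciita overlap those of Dexi on the other strand. Dexi was listed at 3.99 FPKM after apoptotic cells, 0.679 FPKM after LPS and 0 without treatment. Without strand the few reads of Ciita could therefore come from either gene.

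Among the nonclassical class I chain genes, 11 of 22 were above 0 somewhere, and 5 reached a mean of 1 FPKM. The highest was H2-T23, which encodes Qa-1, the molecule that shows class I leader peptides to NK cell receptors (chromosome 17, 36029773 to 36032855), at 56.2 FPKM after apoptotic cells, 42.3 FPKM after LPS and 0 without treatment. H2-Q8 was listed at 7.19 FPKM after apoptotic cells, 13.7 FPKM after LPS and 0 without treatment. H2-Q6 was listed at 31.8 FPKM after LPS and 0 elsewhere, and H2-M3, whose product presents formylated bacterial peptides, at 9.02 FPKM after LPS and 0 elsewhere. H2-M2 was above 0 in all libraries, at 0.213 FPKM after apoptotic cells, 3.51 FPKM after LPS and 0.796 FPKM without treatment, about 1, 15 and 3 reads.

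The 4 nonclassical members above 0 after LPS and below 1 FPKM or at 0 elsewhere were thus H2-M2, H2-M3, H2-Q6 and H2-T10, the last at 2.42 FPKM. Of the 31 members of any role above 0 somewhere, 5 (16.1%) were above 0 after LPS alone, where 10.4% of all genes above 0 anywhere were. The nonclassical members above 0 and not yet named were low: H2-T24 stood at 1.56 FPKM after apoptotic cells and 1.11 FPKM after LPS, H2-Q2 at 1.70 FPKM after apoptotic cells and 0.648 FPKM without treatment, and H2-Q1, H2-Q10 and H2-Bl at no more than 0.638 FPKM. H2-T3 and 10 H2-M genes, H2-M1, H2-M5, H2-M9, H2-M11 and H2-M10.1 to H2-M10.6, were listed at 0 in every library.

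These paralogs are alike in sequence, so reads may be split between them. Of the 50-base windows of the longest transcript, 42.9% for H2-T10, 35.0% for H2-Q6 and 29.8% for H2-T23 occur in a transcript of another gene, against 0.576% for H2-M3 and 0% for H2-Ab1 and H2-Aa. For H2-DMb1 and H2-DMb2 the share found in any other gene is 27.2% and 30.9%. Shares above 20% were also found for Cd1d1 (25.8%), H2-Q1 (22.9%), H2-Oa (21.7%) and Tapbp (21%). Values of genes with such shares are therefore uncertain in a way that the counting intervals do not cover. Cd1d1, the CD1 gene whose product shows lipids to NKT cells, was listed at 0 after apoptotic cells, 5.33 FPKM after LPS and 2.52 FPKM without treatment.

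Among the class I supply and loading members, Tap1, Tap2, Tapbp, Psmb8 and Psmb9 had a value without treatment and were highest there, while Tapbpl, Psmb10 and Erap1 were listed at 0 there. Tap1 (chromosome 17, 34187553 to 34197225) stood at 13.3 FPKM after apoptotic cells, 19.7 FPKM after LPS and 40.2 FPKM without treatment, and Tap2 (34203527 to 34216321), which encodes the partner chain of the peptide pump, at 16.9, 33.3 and 40.3 FPKM in the same order. Tapbp, the tapasin gene (33915899 to 33929292), was listed at 73.8 FPKM after apoptotic cells, 0 after LPS and 113.9 FPKM without treatment. Annotated exons of Tapbp overlap those of Zbtb22 on the same strand, so some reads could be counted for either. Zbtb22 was listed at 10.8 FPKM after apoptotic cells, 11.9 FPKM after LPS and 14.4 FPKM without treatment. The tapasin relative Tapbpl, on chromosome 6, was listed at 5.79 FPKM after apoptotic cells, 4.33 FPKM after LPS and 0 without treatment. Erap1, the peptide-trimming aminopeptidase gene on chromosome 13, was listed at 14.4 FPKM after LPS and at 0 in both other libraries.

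The immunoproteasome genes Psmb8 (chromosome 17, 34197721 to 34201454) and Psmb9 (34181987 to 34187764) encode catalytic subunits. Psmb8 stood at 67.3 FPKM after apoptotic cells, 65 FPKM after LPS and 105.6 FPKM without treatment, and Psmb9 at 15.6, 13.7 and 44.2 FPKM in the same order. The third subunit gene, Psmb10 on chromosome 8, was listed at 26.9 FPKM after apoptotic cells, 31.6 FPKM after LPS and 0 without treatment. Psmb9 and Tap1 lie head to head and share a promoter. Both were highest without treatment, as were Tap2, Tapbp and Psmb8. Between the treated libraries Tap1 was listed higher after LPS and Psmb9 after apoptotic cells. The RefSeq promoter windows of both genes hold the Y box core, given here on the Psmb9 strand with the core in capitals.
Psmb9 and Tap1 (chr17:34187314-34187400, minus strand): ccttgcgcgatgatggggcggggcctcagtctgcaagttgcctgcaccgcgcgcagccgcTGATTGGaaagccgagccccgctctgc
Counted from the RefSeq starts, the core begins 10 bases before Psmb9 and 222 bases before Tap1. By the GENCODE coordinates above the genes overlap and the core lies inside Psmb9. Annotated exons of these genes overlap on opposite strands, so without strand some reads could be counted for either.

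Cd83, on chromosome 13, encodes a costimulation molecule that keeps class II and CD86 at the surface. It was listed at 8.30 FPKM after apoptotic cells, 39.9 FPKM after LPS and 0 without treatment, about 57 and 284 reads in the treated libraries. H2-Ke2 stood at 33.3, 53.2 and 45.7 FPKM in the order apoptotic cells, LPS, untreated.

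**Figure D3:**
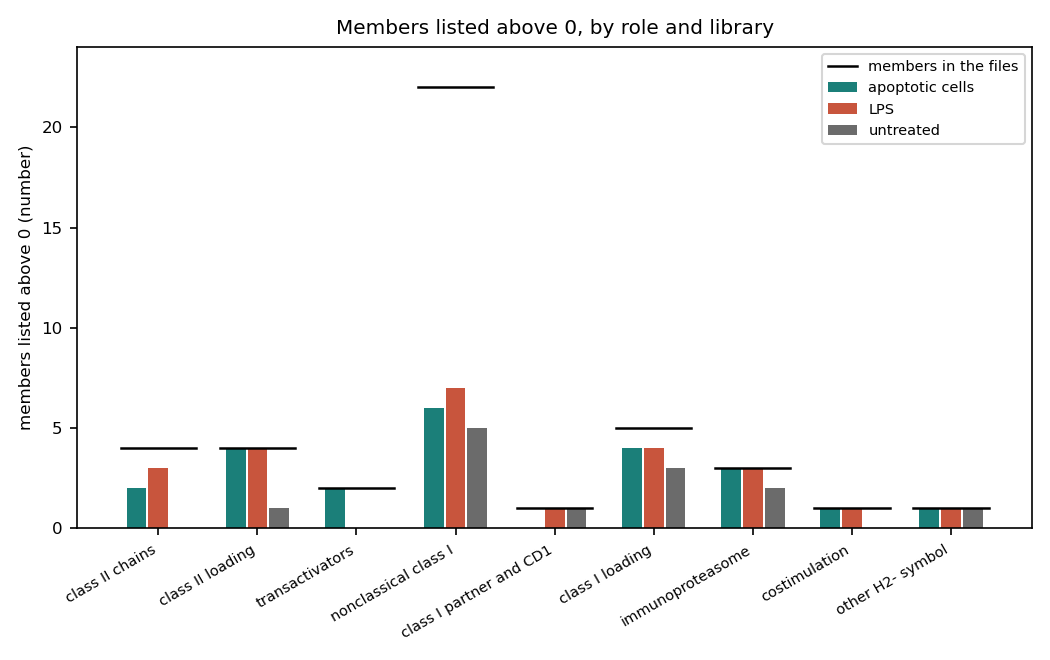
Number of members listed above 0 (bars, 1 per library) for each role, with a black line at the number of members in the files. Class II chains had 2 of 4 above 0 after apoptotic cells, 3 after LPS and 0 without treatment, and class II loading genes 4, 4 and 1 of 4.

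A ratio needed values above 0 in both libraries and a mean of at least 1 FPKM over all 3. It was taken as log2 of FPKM + 1, which understates differences of low genes; a gene counts as higher or lower from 2-fold on that scale. The 23 members with that mean include genes that reached it through 1 library alone. Intervals are 95% counting intervals of the plain log2 ratio without the added 1.

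Macrophages given apoptotic cells were set against untreated macrophages first. Tap1, Tap2, Psmb9 and H2-Oa stood at least 2-fold lower after apoptotic cells, and no member with a ratio stood at least 2-fold higher. Tapbpl (5.79 FPKM after apoptotic cells) and Psmb10 (26.9 FPKM) were listed at 0 without treatment and gave no ratio. Of the 8 members with a ratio, 4 were at least 2-fold lower, where 16.4% of 3369 genes were, and 0 were at least 2-fold higher, where 12.4% were. The median of the 8 was -0.92 on the log2(FPKM + 1) scale, against -0.13 for all genes. The other 35 members had a listed 0 or a mean under 1 FPKM, so these 8 do not stand for all 43. With median-of-ratios scaling Tap2 fell short of 2-fold at -0.99, leaving 3 lower members, and all genes split into 538 higher and 428 lower, against 418 and 554 as deposited.

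The 4 lower members were H2-Oa (log2 ratio -1.90, interval -2.88 to -1.35), Tap1 (-1.52, interval -1.92 to -1.28), Psmb9 (-1.45, interval -1.99 to -1.07) and Tap2 (-1.20, interval -1.52 to -0.99). Psmb8 (-0.64) and Tapbp (-0.62) were lower by less than 2-fold, with counting intervals that lay below 0. H2-M2 (-0.57) rested on about 1 and 3 reads and its interval ran from -7.23 to 2.12. H2-Ke2 stood at -0.44 with an interval from -0.96 to 0.03. Relative to the median of all genes the 4 lower members lay between -1.77 and -1.07.

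LPS against no treatment gave a more mixed picture. H2-Oa and Psmb9 stood lower after LPS and H2-M2 stood higher, while Tap1, Tap2 and Psmb8 differed by less than 2-fold on the log2(FPKM + 1) scale. Without the added 1, Tap1 was 2.03-fold lower, which gave 3 lower members. Of the 8 members with a ratio, 2 were at least 2-fold lower, where 26.2% of 3421 genes were, and 1 was at least 2-fold higher, where 8.51% were. The 1 higher member, H2-M2, reached the mean of 1 FPKM only through the LPS library, where it was highest. Its call therefore depends on the filter and says nothing about the members as a set. The members' median log2 ratio was -0.48 and that of all genes -0.40, so the members' lower count lies near the share of all genes. Median-of-ratios scaling, which moved the median of all genes by more than in any other comparison, put the members' median at 0.13 and that of all genes at 0.10, with 647 genes higher and 450 lower against 291 and 896 as deposited.

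H2-Oa had a log2 ratio of -4.11 and was 38.1-fold lower after LPS on the plain scale, but it rested on about 2 reads after LPS and its plain log2 interval ran from -8.44 to -3.47. Psmb9 stood at -1.62 (interval -2.19 to -1.23). Tap1 lay just under 2-fold at -0.99 (interval -1.30 to -0.75), Psmb8 at -0.69 and Tap2 at -0.27, the last 0.34 with median-of-ratios scaling, and relative to the median of all genes these are -0.59, -0.29 and 0.14. H2-M2 had a log2 ratio of 1.33 (interval 0.52 to 4.77), or 0.55 with a pseudocount of 5, and Cd1d1 of 0.84 (interval 0.11 to 2.11), with H2-Ke2 at 0.22. Both comparisons share the untreated library, so Psmb9 and H2-Oa being lower in each is not a repeated observation.

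**Figure D4:**
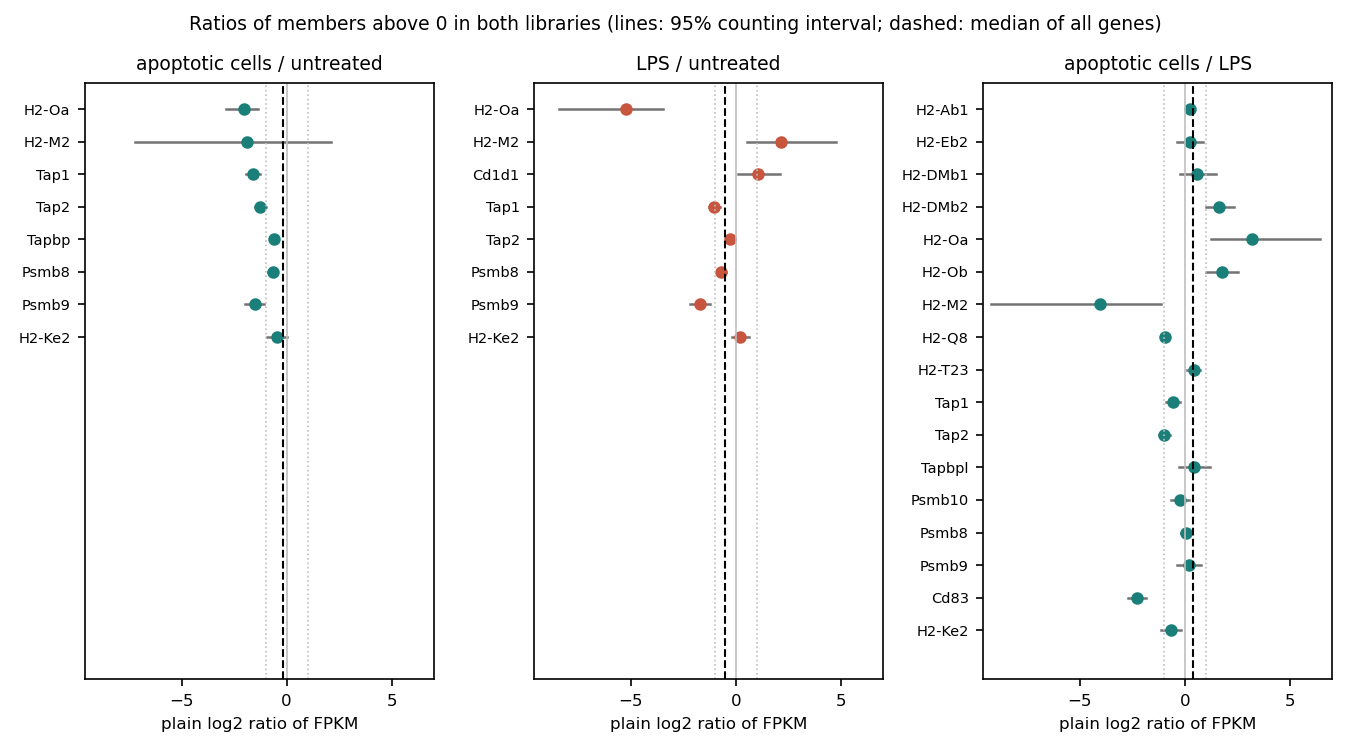
Plain log2 ratios of FPKM for members with a mean of at least 1 FPKM and above 0 in both libraries, in 3 comparisons, with 95% counting intervals as lines (none for H2-Q8, which has no matched transcript length), dotted lines at 2-fold and a dashed line at the median of all genes. Tap1, Tap2, Psmb9, H2-Oa and H2-M2 lie left of the lower 2-fold line in the first panel, H2-M2 with an interval that includes 0, and Cd83 and H2-M2 lie left of it in the third panel, where H2-DMb2, H2-Ob and H2-Oa lie right of the upper line.

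Apoptotic cells against LPS is the comparison with the most members, since both libraries list more of them above 0, and both were treated for 5 h. H2-Oa, H2-DMb2 and H2-Ob, 3 of the 4 class II loading genes, stood at least 2-fold higher after apoptotic cells, and Cd83 and H2-M2 stood at least 2-fold lower. The class II chain genes and immunoproteasome genes with a ratio differed by less than 2-fold. Of the 17 members with a ratio, 3 were at least 2-fold higher, where 15.7% of 4599 genes were, and 2 were at least 2-fold lower, where 5.54% were, so the members' higher count lies near the share of all genes. Among these, H2-M2 reached the mean of 1 FPKM only through the LPS library, where it was highest. H2-Ob reached it only through the apoptotic-cell library, where it was highest. The counts that include these genes therefore depend on the filter. The median was 0.18 for the members and 0.32 for all genes. Median-of-ratios scaling turned these to -0.21 and -0.01, with 5 members lower and all genes split into 419 higher and 443 lower, against 722 and 255 as deposited.

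The higher members were H2-Oa (log2 ratio 2.21, interval 1.24 to 6.44), H2-DMb2 (1.51, interval 1.02 to 2.32) and H2-Ob (1.43, interval 1.00 to 2.55, and 0.85 with a pseudocount of 5); the fourth loading gene, H2-DMb1, stood at 0.52 (interval -0.24 to 1.48). H2-Ab1 (0.23) and H2-Eb2 (0.19) lay close to the median of all genes, and both were below 0 with median-of-ratios and upper-quartile scaling. Cd83 was lowest at -2.14 (interval -2.71 to -1.86), a level 4.81-fold higher after LPS on the plain scale, and H2-M2 stood at -1.89 on about 1 and 15 reads, or -0.71 with a pseudocount of 5.

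As deposited, class I genes with a ratio other than H2-M2 stayed within 2-fold. Tap2 lay nearest to 2-fold lower at -0.94 (interval -1.25 to -0.70), followed by H2-Q8 at -0.84 and Tap1 at -0.54. With median-of-ratios and upper-quartile scaling, Tap2 (-1.33 and -1.26) and H2-Q8 (-1.22 and -1.15) passed 2-fold lower. The counting intervals of Psmb8 (0.05), Psmb9 (0.18) and Psmb10 (-0.22) all included 0, and the first 2 were below 0 with median-of-ratios and upper-quartile scaling. H2-T23 stood at 0.40 and Tapbpl at 0.35, and H2-Ke2 at -0.66.

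Other genes of the pathway were read from a list of 50, of which 33 were in the files. With apoptotic cells against no treatment, 2 of 11 with a ratio were at least 2-fold higher and 1 lower, where 12.4% and 16.4% of all genes were. With LPS against no treatment, 1 of 9 was higher and 3 lower, where 8.51% and 26.2% of all genes were. With apoptotic cells against LPS, 3 of 14 were higher and 2 lower, where 15.7% and 5.54% of all genes were. The proteasome activator genes Psme1 (50.1 FPKM after apoptotic cells, 51.1 FPKM after LPS, 81.9 FPKM without treatment) and Psme2 (78.0, 208.9 and 112.7 FPKM in the same order) were measured in every library. Psme1 was highest without treatment, as Psmb8, Psmb9, Tap1 and Tap2 were, and Psme2 was highest after LPS, at a log2 ratio of -1.41 for apoptotic cells against LPS.

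The 3 endosomal enzyme genes of class II processing in the files had a value in 1 library each. Ifi30, the lysosomal thiol reductase gene, was listed at 229.1 FPKM after apoptotic cells and 0 elsewhere, Lgmn, the legumain gene, at 100.9 FPKM after LPS and 0 elsewhere, and Ctsl, the cathepsin L gene, at 178.1 FPKM without treatment and 0 elsewhere. Of the peptide loading chaperones, Calr was listed at 231.7 FPKM without treatment and 0 elsewhere, and Pdia3 at 519.0 FPKM after apoptotic cells, 329.1 FPKM after LPS and 0 without treatment. The constitutive proteasome genes Psmb6 and Psmb7, whose subunits the immunoproteasome replaces, were listed at 183.2 and 198.5 FPKM after apoptotic cells, 0 and 265.7 FPKM after LPS, and 128.8 and 0 FPKM without treatment. Rfx5, an RFX subunit gene of the X box complex, was listed at 1.44 FPKM after apoptotic cells and 0 elsewhere, and so were Cd40 at 8.84 FPKM and the checkpoint ligand gene Cd274 at 19.3 FPKM.

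T cell and thymocyte markers also differed between the libraries. The 11 markers summed to 98.7 FPKM after apoptotic cells, 3.91 FPKM after LPS and 16.1 FPKM without treatment, and 10, 6 and 2 of them were above 0. Rag1 led with 41.2 FPKM after apoptotic cells, against 0.679 FPKM after LPS and 0 without treatment. Cd3g (10.6, 0 and 12.6 FPKM in the order apoptotic cells, LPS, untreated) and Cd4 (1.8, 0.195 and 3.48 FPKM) were highest without treatment. Lck was listed at 0.809 FPKM after LPS and 0 elsewhere, and the other markers were highest after apoptotic cells. The part of RNA from such cells in the values of the apoptotic-cell library, class I and Nlrc5 included, was not tested.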

How the data were processed

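The authors deposited 1 table of FPKM per library. The unit is inferred: Cuffdiff, Cufflinks 2.2.1, TopHat2 2.1.0, cutadapt 1.14 and build mm10 are named per the submitters' processing notes, without a unit. Options, annotation, read length and strandedness are not given in the labels. Members and lists were chosen with earlier results of these data known.

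Groups came from the coculture label. Ratios were log2((FPKM + 1)/(FPKM + 1)) over the whole table for genes above 0 in both libraries with a mean of at least 1 FPKM; a listed 0 entered no ratio. With 1 library per group no test was run. Every member may be named. Of the pathway list a set of genes fixed beforehand was named whatever their values, and Ctsl, which is not in that set, was named in addition.

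Reads per FPKM were estimated from the steps of low values of genes with 1 annotated transcript in GENCODE M21, after taking 200 bases off the length; the fit was loose (mean cosine 0.244 to 0.31, where 1 is perfect), so read numbers are approximate and no count test was run. Counting intervals are exact binomial at 95%, using the longest coding transcript. GENCODE M21 matched 42 of 43 members (not H2-Q8; H2-Ke2 as Pfdn6) and gave coordinates; 11 overlap exons of another gene. Promoters came from RefSeq (GRCm38.p6) for 29 members. Python 3.11.15, pandas 2.3.3 and scipy 1.17.1 were used, and the ratio step was tested on simulated data. Alternatives changed the pseudocount, the filter, the scaling, the genes used and the fold; leaving out H2-Ke2 was added after seeing the data. Of the genes on the marker lists, 1 is not reported here.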

Additional observations from a re-analysis of the deposited data

How the results depend on the processing

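No paired analysis was possible because each condition has 1 library. No member at least 2-fold apart changed sign under any alternative that gave it a value. Of 33 member ratios, 5 had the other sign under some alternative, all of them under 2-fold (H2-Ab1, H2-Eb2, Psmb8 and Psmb9 for apoptotic cells against LPS, and Tap2 for LPS against no treatment), and 10 crossed 2-fold. Members' medians stayed within the range given by their own spread, but with median-of-ratios scaling they were 0.13 for LPS against no treatment and -0.21 for apoptotic cells against LPS. Causes of the shifts below were not tested unless fewer genes or another threshold make them.

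For apoptotic cells against no treatment, members at least 2-fold lower went to 0 with a 4-fold threshold. All genes higher and lower were 235 and 228 with a pseudocount of 5, 746 and 1021 at 1.5-fold, 96 and 143 at 4-fold, and 268 lower with a mean of at least 5 FPKM. For LPS against no treatment, members higher were 2 with a pseudocount of 0.1, none added, median-of-ratios scaling, upper-quartile scaling or a 1.5-fold threshold, and 0 with a pseudocount of 5, a mean of at least 5 FPKM or a 4-fold threshold; members lower were 4 at 1.5-fold and 1 at 4-fold. All genes higher and lower were 164 and 321 with a pseudocount of 5, 647 and 450 with median-of-ratios scaling, 482 and 586 with upper-quartile scaling, 543 and 1461 at 1.5-fold, 68 and 194 at 4-fold, and 429 lower with a mean of at least 5 FPKM. For apoptotic cells against LPS, members lower were 1 with a pseudocount of 5, a mean of at least 5 FPKM, genes above 0 in all 3 libraries or a 4-fold threshold, 5 with median-of-ratios scaling or at 1.5-fold and 4 with upper-quartile scaling; members higher were 1 among genes above 0 in all 3 libraries and 1 at 4-fold. All genes higher and lower were 278 and 155 with a pseudocount of 5, 398 and 163 with a mean of at least 5 FPKM, 419 and 443 with median-of-ratios scaling, 457 and 391 with upper-quartile scaling, 1537 and 496 at 1.5-fold, 148 and 90 at 4-fold, and 464 higher among genes above 0 in all 3 libraries. Median-of-ratios scaling moved the median of all genes from -0.40 to 0.10 for LPS against no treatment.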
